A study of Drosophila melanogaster with 27 samples.

Results

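This comparison set the RNA that came down with AGO1 (IP) against the RNA of the starting extract (INPUT) in wild-type fly heads collected during the light phase. Members were the arrays whose titles give wild type and Zeitgeber time (ZT, hours after lights on) 3, 7 or 11, which made 11 of the 27 arrays of the series. The IP fraction had 6 arrays, 2 at each time, and INPUT had 5, with 1 array at ZT3, 2 at ZT7 and 2 at ZT11. All were heads of adult Drosophila melanogaster entrained to 12 h of light and 12 h of dark, and they were set against the same pair of fractions at night (ZT15, ZT19 and ZT23), with 6 IP and 6 INPUT arrays. According to the series' design description the wild-type replicates are biological. No source used here says whether each came from its own pool of heads, so the p-values measure the spread between these samples, which may be technical.

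In flies AGO1 is the Argonaute protein that carries most microRNAs. A loaded AGO1 pairs with sites in messenger RNAs, mostly in their 3' untranslated regions, and recruits the effector protein GW182, which lowers translation and brings on removal of the poly(A) tail and decapping. An immunoprecipitate of AGO1 therefore holds target messages together with whatever RNA binds non-specifically. Precipitates made with a control serum were not analysed here, and no value is corrected for such binding. In whole heads, fewer cells of a type and less RNA per cell cannot be told apart. The messages of AGO1 and of Dcr-1, which cuts microRNA precursors, are not analysed here.

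The head label was checked against marker genes. Neuronal, photoreceptor and glial markers were present in INPUT, with the highest of each at 10.80 (nSyb, a synaptic vesicle protein), 12.22 (trp, the light-activated channel) and 12.72 (Gs2, glutamine synthetase) on the deposited log2 scale. The lowest of each was at 5.85, 10.17 and 6.10, where the medians of the INPUT arrays were 6.11 to 6.18. Fat body markers ran from 4.97 to 14.18 (Yp1), muscle markers from 9.64 to 9.93 and ovary markers from 4.25 to 7.59. Markers of male accessory gland, testis and midgut were high as well, with Acp98AB at 13.23, Mst84Db at 12.77 and alphaTry at 12.16 in INPUT. Over each list the mean level of an array lay between 6.52 and 7.94 in IP and between 8.86 and 9.55 in INPUT for accessory gland, between 8.97 and 10.31 in IP and between 11.64 and 11.85 in INPUT for testis, and between 6.67 and 8.56 in IP and between 8.87 and 9.89 in INPUT for midgut, as deposited. IP arrays are lower as deposited at large, with a median IP minus INPUT of -1.31 over probe sets. With each array centred on its own median, the list medians were -0.29 for accessory gland, -0.20 for testis and -0.06 for midgut. On that scale 7 of 11, 7 of 8 and 7 of 8 of these markers did not pass the test described below. The part of these markers in the results was not tested.

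One array stood apart. IP at ZT3 replicate 2 had a median correlation of 0.973 with the other daytime IP arrays, where each of those had 0.988 to 0.991. In it 6.03% of probe sets lay more than 2-fold from the median of the other IP arrays, while the share was 0.23% to 1.02% in those. In that array 7 of 8 testis markers and 7 of 8 midgut markers lay more than 1 log2 unit below the other IP arrays, as did 6 of 19 muscle genes. INPUT at ZT3 has no second array to pair with it. The description of IP at ZT3 replicate 1 names another time than its title and time entry, which both give ZT3, and ZT3 was used.

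The arrays of the fractions carry different scales. As deposited, the median of IP minus INPUT over probe sets was -1.31, and with no centring 473 passed as higher in IP and 13680 as lower. Every level below is therefore a log2 value relative to the median of the non-control probe sets of its own array, and every difference is IP minus INPUT on that scale. On it 7433 of 14882 probe sets (49.9%) differed at a Benjamini-Hochberg adjusted p under 0.05 in limma with ZT as a block, 3700 (24.9%) with more in IP and 3733 (25.1%) with less. Named genes are represented by the probe set of highest mean. Past 2-fold, 1245 were higher (8.37%) and 513 lower (3.45%). Leaving out IP at ZT3 replicate 2 gave 3960 and 4124, and 7385 of the 7433 calls were kept with the same sign.

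The differences were lopsided in size. Among 11037 named genes, 184 were at least 4-fold higher in IP and 4 were at least 4-fold lower, and 12 were at least 8-fold higher against 0 at least 8-fold lower. Of 6070 named genes past the test, 6031 had the same sign at ZT3, ZT7 and ZT11. The call was made on these times together, so this count is no separate check. The share of calls also moved with the level in INPUT. Of 5 equal bins by INPUT level, the lowest had 10.5% of its probe sets higher and 2.6% lower, the middle one 33.6% and 30.5%, and the highest 24.9% and 39.5%.

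The message with the largest excess in the daytime precipitate encoded Vang, a core membrane protein of planar cell polarity. Its levels in IP spanned 3.98 to 4.49 with a median of 4.24, against 0.08, 0.23, 0.41, 0.44 and 0.69 in INPUT. Each IP array lay more than 3 log2 units above each INPUT array, and the difference was 3.85 (SE 0.13, adjusted p = 2.7e-09). The difference was 4.33 at ZT3, 3.91 at ZT7 and 3.48 at ZT11. For neur, the ubiquitin ligase that triggers endocytosis of the Notch ligand Delta, IP ran from 3.49 to 4.08 with a median of 3.63, against 0.08, 0.09, 0.32, 0.35 and 0.38 in INPUT. The fractions were again far apart, by 3.45 (SE 0.12, adjusted p = 2.7e-09). For sinu, a claudin of the septate junctions, IP ran from 6.14 to 6.43 with a median of 6.31, against 2.69, 2.70, 2.93, 2.94 and 3.14 in INPUT. Its difference of 3.41 had the smallest error of these (SE 0.10, adjusted p = 1.67e-09).

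The rest of the 20 highest were of several kinds. AdamTS-A, a secreted metalloprotease, differed by 3.57 (SE 0.16). Its IP levels ran from 3.43 to 4.36, and the lowest was IP at ZT3 replicate 2. A dimmer probe set of AdamTS-A did not pass (-0.26, SE 0.11, adjusted p = 0.0755). Genes of known role were ana, a secreted glial glycoprotein (3.35, SE 0.14), Cyp18a1, the cytochrome P450 that inactivates ecdysone (3.20, SE 0.11), jumu, a forkhead transcription factor (3.02, SE 0.12), mew, an integrin alpha chain (2.94, SE 0.17), and crim, a Ly6 family protein (2.85, SE 0.15). The others were lncRNA:CR42549 (3.62, SE 0.13), bip1 (3.40, SE 0.13), CG15345 (3.27), CG6583 (3.21), CG15385 (3.14), CG4596 (2.98), CG14883 (2.90), CG31710 (2.88), CG18265 (2.88), CG10710 (2.87) and CG11617 (2.82). All 20 had every IP array above every INPUT array, which was part of the rule that chose them and held for 18.2% of probe sets at large. All 20 remained higher in IP on the deposited values, where Vang differed by 2.54 and CG11617 by 1.51.

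**Figure D1:**
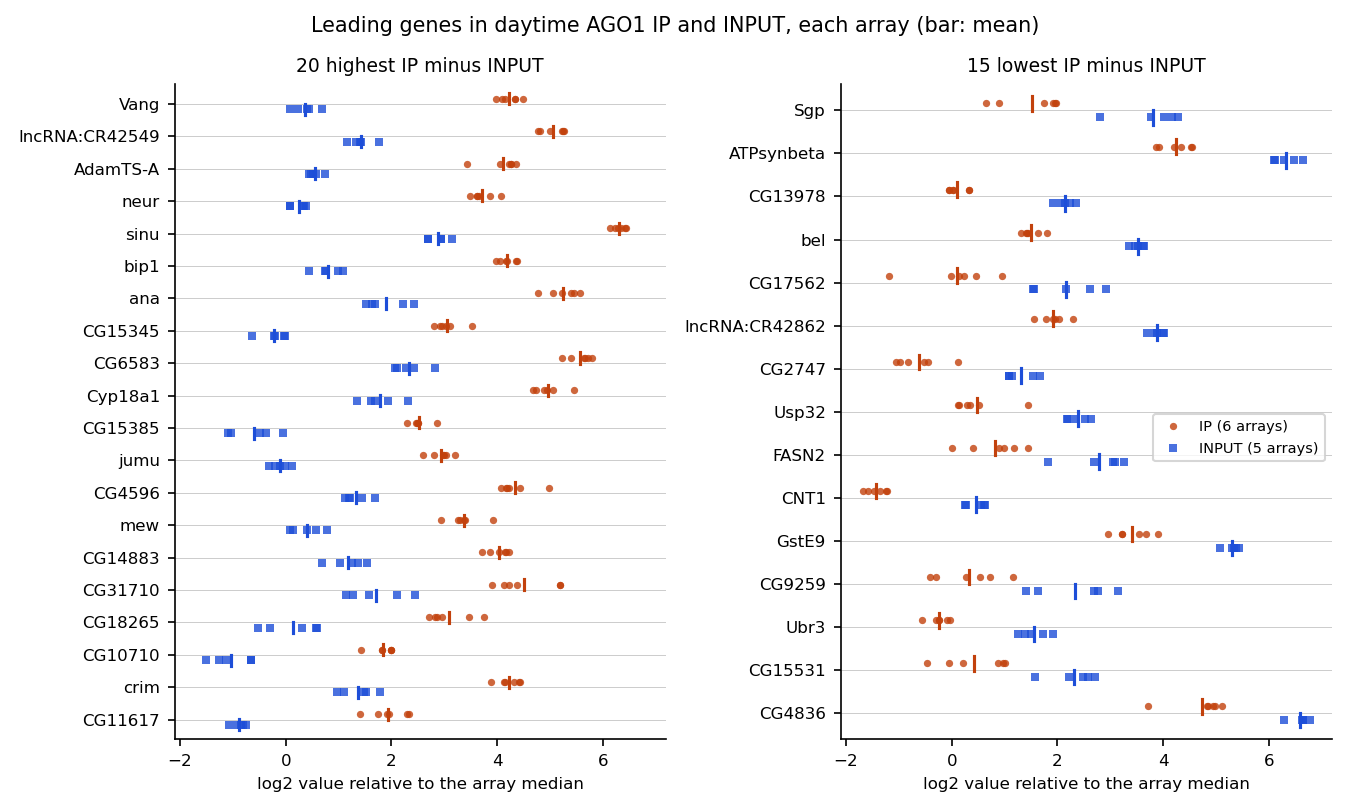
Levels of the 20 genes of largest positive and 15 of largest negative daytime difference on each array, as log2 values relative to the array median (horizontal axis). Circles are the 6 IP arrays and squares the 5 INPUT arrays, with a bar at each mean. Vang spans 3.98 to 4.49 in IP and 0.08 to 0.69 in INPUT, and Sgp spans 0.64 to 1.98 in IP and 2.80 to 4.28 in INPUT.

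At the other end, Sgp had the largest negative difference among genes that met the rule, and its IP levels ran from 0.64 to 1.98 with a median of 1.83, against 2.80, 3.76, 4.01, 4.17 and 4.28 in INPUT. Both fractions were widely spread, with IP at ZT3 replicate 2 and INPUT at ZT11 replicate 2 lowest, yet they did not overlap. The difference was -2.25 (SE 0.26, adjusted p = 1.36e-05). For bel, a DEAD-box RNA helicase of translation, the arrays were tight, from 1.31 to 1.81 in IP with a median of 1.43, against 3.36, 3.46, 3.53, 3.61 and 3.63 in INPUT. A gap of 1.55 separated the highest IP array from the lowest INPUT array, and bel passed as lower in limma (SE of the difference 0.11, adjusted p = 2.51e-08). ATPsynbeta, the catalytic beta subunit of the ATP synthase, differed by -2.07 (SE 0.15), with IP from 3.86 to 4.55 and INPUT from 6.09 to 6.64. A second probe set of ATPsynbeta differed by only -0.50 (SE 0.10, adjusted p = 0.000974).

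Genes of known role that followed were the ubiquitin protease Usp32 (-1.97, SE 0.18), the fatty acid synthase FASN2 (-1.93, SE 0.24), the nucleoside transporter CNT1 (-1.91, SE 0.10), the glutathione transferase GstE9 (-1.90, SE 0.15) and the ubiquitin ligase Ubr3 (-1.82, SE 0.13). CG13978 (-2.06), CG2747 (-1.98), CG17562 (-1.98), CG9259 (-1.85), CG4836 (-1.81) and CG15531 (-1.81) made up the rest with lncRNA:CR42862 (-1.98, SE 0.13). That non-coding RNA had 2 further probe sets, at -1.62 and -3.53, and the last was the lowest difference of all probe sets kept. Having every IP array below every INPUT array was again part of the rule, and held for 16.4% of probe sets.

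Gene lists gave the rest of the picture, and each is set against 27.8% higher and 27.2% lower among all named genes, whose median was -0.01 at ZT3, 0.01 at ZT7 and -0.03 at ZT11. Lists are described by counts and medians, with no test of the list. Because the scale decides the sign of modest differences, the counts on deposited values are given beside each. On that scale 416 of all 11037 named genes passed as higher and 10015 as lower, so most members of most lists are lower there.

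Genes published as microRNA targets came first by median. Of 21 tested members 17 were higher in IP and 2 lower (median 1.44, as deposited 7 higher and 9 lower). The cell death gene skl ran from 2.20 to 3.65 in IP with a median of 2.43, against -0.30, -0.08, 0.01, 0.24 and 0.49 in INPUT. Its highest value was IP at ZT3 replicate 2, and the difference was 2.56 (SE 0.23), or 2.37 without that array. The Notch-modifying glycosyltransferase fng was tighter, from 4.51 to 4.94 in IP with a median of 4.82, against 1.96, 2.13, 2.21, 2.44 and 2.47 in INPUT, a difference of 2.52 (SE 0.08, adjusted p = 2.7e-09). Further members of the list that were higher were sug, a transcription factor, at 2.32 (SE 0.15), hry, the hairy repressor, at 2.23 (SE 0.09) and sens, a zinc finger factor of sensory organs, at 1.92 (SE 0.23). The 2 lower members were mei-P26, a TRIM-NHL protein (-0.40, SE 0.13), and Stat92E, the STAT factor (-0.44, SE 0.16). Their calls were lost without 4 and 8 of the 11 single arrays, with adjusted p up to 0.0849 for mei-P26 and 0.0935 for Stat92E. The genes hid and rpr are not analysed here.

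For the E(spl) and Bearded families, which Notch signalling turns on, the daytime count depended on the block. Of 10 members 4 were higher and 0 lower with ZT as the block (as deposited 3 higher and 2 lower), and 5 and 0 without IP at ZT3 replicate 2. With same-numbered IP and INPUT arrays as pairs 8 were higher and 0 lower. That fit leaves IP at ZT3 replicate 2 without a partner, so that array adds nothing to the difference. The 4 were E(spl)m3-HLH, a bHLH repressor (2.37, SE 0.15), E(spl)m2-BFM (2.17, SE 0.11), E(spl)malpha-BFM (2.10, SE 0.27) and E(spl)m7-HLH, another bHLH repressor (1.06, SE 0.18). Their IP levels did not overlap with INPUT, at 2.29 to 3.13 against -0.15 to 0.65 for E(spl)m3-HLH. The list's median was 1.23 over the day, with 0.38 at ZT3, 1.78 at ZT7 and 1.34 at ZT11. At ZT3 INPUT rests on 1 array. At night the median was 2.04 at ZT15, 2.24 at ZT19 and 0.35 at ZT23, the last with 2 INPUT arrays.

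Components of the Notch pathway itself were mostly higher, 9 of 14 with 1 lower and a median of 0.65 (as deposited 3 higher and 9 lower). After neur and fng came kuz, the ADAM protease that cleaves Notch (1.66, SE 0.16), H, the Hairless co-repressor (1.64, SE 0.12), and dx, a ubiquitin ligase of the pathway (1.35, SE 0.14). Su(dx), a ligase that opposes signalling, was lower at -0.34 (SE 0.12, adjusted p = 0.0319), a call lost without 7 of the 11 single arrays (adjusted p up to 0.0908). Notch and Delta are not analysed here.

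Of 25 listed genes of Wnt and planar polarity signalling only 8 were tested. All 8 were higher in IP, with a median of 1.08 (as deposited 3 higher and 3 lower). The other listed genes, among them fz, dsh and arm, are not analysed here. Beside Vang the 8 tested genes included nkd, an inhibitor of Wnt signalling (2.56, SE 0.12), and wls, which carries Wnts to the cell surface (1.65, SE 0.12). They also included Axn, the scaffold of the beta-catenin destruction complex (1.08, SE 0.12), and ds, a large cadherin (1.07, SE 0.14). On deposited values Axn and ds were -0.23 and -0.24.

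Septate junction genes were higher at 18 of 21, with 2 lower and a median of 0.99 (as deposited 8 higher and 11 lower). Gli, a cholinesterase-like protein of tricellular junctions, ran from 3.56 to 4.45 in IP with a median of 3.88, against 1.09, 1.18, 1.49, 1.51 and 1.57 in INPUT. The fractions were far apart, by 2.54 (SE 0.15). The claudins kune (2.43, SE 0.12) and pck (2.11, SE 0.11) stood beside sinu, and the Ly6 protein crok (1.97, SE 0.11) beside crim. Against them cora, a cytoplasmic protein of the same junction, was lower at -0.87 (SE 0.09), and the scaffold dlg1 at -0.73 (SE 0.16). The probe sets of dlg1 disagreed: another was at 1.51 (SE 0.12) and another at -1.03 (SE 0.15).

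Axon guidance and cell adhesion genes had 27 of 35 members higher and 0 lower, with a median of 0.89 (as deposited 8 higher and 19 lower; with the pairs as a block 27 and 2). The immunoglobulin protein rst ran from 3.22 to 3.76 in IP with a median of 3.29 and from 0.56 to 0.88 in INPUT, a difference of 2.63 (SE 0.11). The Slit receptor robo1 was at 2.44 (SE 0.10), the receptor phosphatase Ptp99A at 2.26 (SE 0.15), the semaphorin Sema5c at 2.10 (SE 0.10) and the leucine-rich repeat protein trn at 1.91 (SE 0.10). At night 25 were higher and 4 lower. In IP at ZT3 replicate 2 these genes lay 0.53 above the other IP arrays at the median, and without that array 26 were higher and 2 lower.

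Integrins and matrix were more mixed, with 14 of 25 higher, 3 lower and a median of 0.42 (as deposited 5 higher and 16 lower). Besides AdamTS-A and mew, the LIM protein Tes was higher by 2.80 (SE 0.13), the laminin alpha chain wb by 1.64 (SE 0.14) and the integrin alpha chain if by 1.62 (SE 0.12). SPARC, a collagen-binding protein of basement membranes, was lower at -0.77 (SE 0.10).

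Ligands led the growth factor lists. In BMP and activin signalling 12 of 16 were higher in IP and 1 lower (median 0.95, as deposited 2 and 9). The activin-like ligands daw (2.26, SE 0.10) and Actbeta (2.24, SE 0.19) were followed by the type I receptor tkv (1.38, SE 0.10), while the Smad protein Smox was lower at -0.79 (SE 0.15). For daw IP ran from 4.36 to 4.78 with a median of 4.55, against 2.07 to 2.46 in INPUT. In receptor tyrosine kinase signalling 15 of 25 were higher in IP and 3 lower (median 0.57, as deposited 2 and 18). The EGF ligand spi (2.29, SE 0.11), its receptor Egfr (1.66, SE 0.10), the FGF ligand bnl (1.59, SE 0.14), the ETS repressor aop (1.48, SE 0.09) and the FGF receptor htl (1.43, SE 0.13) led it. The receptor sev of the R7 photoreceptor was lower at -0.84 (SE 0.16) and the scaffold ksr by -0.38 (SE 0.10). Hippo pathway genes were higher at 7 of 9 and lower at 0, with a median of 0.71, although on deposited values 0 were higher and 7 lower. The adaptor sav was at 1.29 (SE 0.10) and the coactivator yki at 1.09 (SE 0.13).

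Developmental transcription factors were higher at 27 of 40 and lower at 2, with a median of 0.78 (as deposited 10 and 24). After jumu came gl, a zinc finger factor required for photoreceptors, with IP from 4.42 to 4.91 and INPUT from 1.73 to 2.25, a difference of 2.78 (SE 0.13). The KLF-like factor cbt followed at 2.28 (SE 0.10), then zfh2 at 2.22 (SE 0.31) and zfh1 at 2.11 (SE 0.14), both zinc finger homeodomain factors. Exceptions were CrebB, the CREB factor, at -1.13 (SE 0.13) and foxo at -0.43 (SE 0.12). Ecdysone response genes were higher at 11 of 20 and lower at 3, with a median of 0.59 (as deposited 4 and 14). The nuclear receptors Hr39 (2.24, SE 0.16), Hr38 (1.92, SE 0.19) and Hr4 (1.67, SE 0.13) and the insulin-binding protein ImpL2 (1.43, SE 0.11) were higher, and the nuclear receptors Eip78C (-0.76, SE 0.15) and ftz-f1 (-0.52, SE 0.11) were lower.

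**Figure D2:**
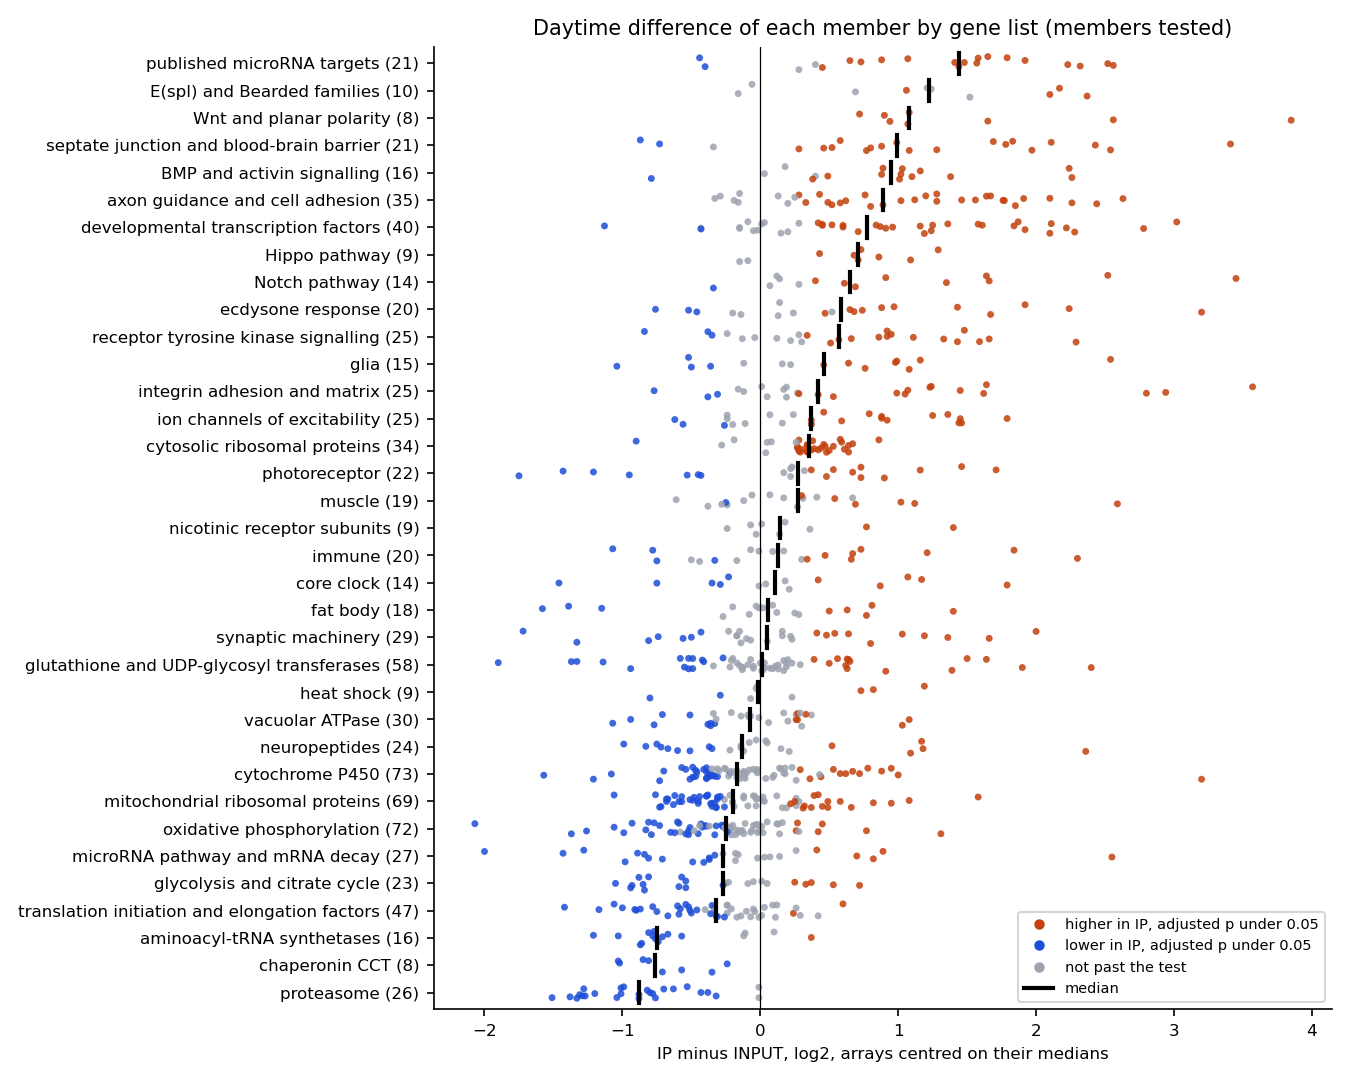
IP minus INPUT by day (log2, horizontal axis) of each tested member of the gene lists, ordered by median, with the number of members in brackets. Orange points were higher in IP and blue points lower at an adjusted p under 0.05, grey points did not pass, and black bars are medians. Medians run from 1.44 for published microRNA targets to -0.88 for the proteasome.

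In the machinery of microRNA action and messenger decay 5 of 27 genes passed as higher in IP, 13 passed as lower and 9 did not pass (median -0.27, as deposited 1 and 26). The largest positive difference was that of Edc3, an enhancer of decapping, which ran from 3.85 to 4.42 in IP with a median of 4.12, against 1.34, 1.46, 1.46, 1.58 and 1.93 in INPUT. The fractions did not come near each other, and the difference was 2.55 (SE 0.11, adjusted p = 8.34e-09). The message of gw, which encodes GW182, was at 4.82 to 5.61 in IP with a median of 5.07, against 4.07, 4.12, 4.22, 4.37 and 4.38 in INPUT (0.89, SE 0.12). The repressor pum was higher by 0.82 (SE 0.10) on the probe set used and lower at -0.36 (SE 0.09) on another. On deposited values gw was at -0.43 and pum at -0.49. Lower in IP were bel, the decapping activator Patr-1 (-1.43, SE 0.20), the nuclease Tudor-SN (-1.28, SE 0.10) and the decapping scaffold Ge-1 (-0.98, SE 0.08).

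Core clock genes split evenly, 5 of 14 higher and 5 lower, with a median of 0.11 (as deposited 1 and 12). The bHLH activator Clk ran from 3.48 to 4.84 in IP with a median of 4.27, against 1.80, 2.16, 2.35, 2.42 and 2.75 in INPUT. The fractions did not overlap although both moved with time, and the difference was 1.79 (SE 0.11, adjusted p = 6.53e-08). The repressors vri (1.17, SE 0.11) and cwo (1.07, SE 0.09) and the F-box protein jet (0.87, SE 0.11) were higher. The light-sensing cryptochrome cry, at 1.32 to 2.00 in IP against 2.62 to 3.54 in INPUT, was lowest (-1.46, SE 0.12). Pdf, the neuropeptide of clock neurons (-0.75, SE 0.14), and its receptor Pdfr (-0.35, SE 0.09) were lower too.

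The repressors tim and per and the activator cyc had small differences. The difference was 0.42 for tim (SE 0.11, adjusted p = 0.00811), but another probe set of tim was at -1.47 (SE 0.18). For per it was -0.29 (SE 0.09, adjusted p = 0.0207) and for cyc, the partner of Clk, -0.23 (SE 0.09, adjusted p = 0.0432). The call of per was lost without 3 of the 11 single arrays and that of cyc without 9 (adjusted p up to 0.0576 and 0.107). Pdp1 (0.21, SE 0.11), tws (0.18, SE 0.12), dco (0.04, SE 0.09) and slmb (-0.01, SE 0.12) did not pass. On deposited values Clk alone remained higher, at 0.47.

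Genes of excitability and vision were mixed within each list. In ion channels 14 of 25 were higher in IP and 3 lower (median 0.37, as deposited 1 and 19; with the pairs as a block 16 and 6). The potassium channels Irk1 (1.79, SE 0.09), SK (1.46, SE 0.15) and Shal (1.45, SE 0.09) and the calcium channel cac (1.36, SE 0.14) were higher, and the sodium channel para was lower at -0.56 (SE 0.14). A second probe set of Irk1 was at -0.33 (SE 0.11). In synaptic machinery 10 of 29 were higher in IP (34.5%) and 7 lower (24.1%), against 27.8% and 27.2% of all named genes (median 0.05, as deposited 2 and 24). The dopamine transporter DAT was higher by 2.00 (SE 0.19) and the RNA-binding protein elav by 1.66 (SE 0.14), while the Munc18 homologue Rop (-1.72, SE 0.11) and the SNARE Snap25 (-1.33, SE 0.22) were lower. Nicotinic receptor subunits had 2 of 9 higher and 0 lower (as deposited 0 and 8), led by nAChRalpha5 (1.40, SE 0.18). In IP at ZT3 replicate 2 synaptic genes lay 0.52 above the other IP arrays at the median. Without that array 10 synaptic genes were higher and 8 lower.

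In the eye, 10 of 22 photoreceptor genes were higher in IP and 7 lower (median 0.27, as deposited 1 and 19). The rhodopsin phosphatase rdgC ran from 5.06 to 5.84 in IP with a median of 5.29, against 3.30, 3.44, 3.56, 3.87 and 3.97 in INPUT, which left a clear space between the fractions (1.71, SE 0.15). The sodium-calcium exchanger Calx was higher by 1.46 (SE 0.13). Higher too, and named after their values were seen, were trp, the light-activated channel, at 0.48 (SE 0.10), and rdgB, a phosphatidylinositol transfer protein, at 0.73 (SE 0.16), which as deposited were -0.83 and -0.58. Lower were Gbeta76C, the eye's G protein beta chain, at -1.75 (SE 0.14), Arr1, an arrestin, at -1.43 (SE 0.14), inaC, the eye protein kinase C, at -1.21 (SE 0.19) and inaD, the scaffold of the signalling complex, at -0.95 (SE 0.12). The G protein alpha subunit Galphaq did not pass (0.17, SE 0.12, adjusted p = 0.278), while another of its probe sets passed as higher (0.65, SE 0.15, adjusted p = 0.00352). The rhodopsins are not analysed here.

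Peptides, glia and the periphery were as divided. Of 24 neuropeptide genes 5 were higher in IP and 9 lower (median -0.13, as deposited 1 and 21), from CCHa2 (2.36, SE 0.18) to Capa (-0.99, SE 0.11). Of 15 glial genes 8 were higher and 4 lower (median 0.46, as deposited 1 and 12), led by Gli and the homeodomain factor repo (1.16, SE 0.14). Of 18 fat body genes 5 were higher in IP (27.8%) and 3 lower (16.7%), against 27.8% and 27.2% of all named genes. The median was 0.05 (as deposited 0 higher and 17 lower, after quantile normalization 2 and 3). There the lipase bmm was higher by 1.40 (SE 0.10), and the lipid droplet protein Lsd-1 (-1.58, SE 0.13), the lipogenic factor SREBP (-1.39, SE 0.10) and the acetyl-CoA carboxylase ACC (-1.15, SE 0.14) were lower. Muscle genes had 6 of 19 higher and 1 lower (as deposited 1 and 15), and 10 and 1 without IP at ZT3 replicate 2, where the list lay 0.77 below the other IP arrays at the median; with the pairs as a block 11 were higher and 2 lower. Mlp60A, a LIM protein of muscle, had the largest difference, 2.59 (SE 0.12), with another of its probe sets at -0.83 (SE 0.25). Of 20 immune genes 8 were higher and 4 lower (as deposited 2 and 17; with the pairs as a block 8 and 7). The peptidoglycan recognition proteins PGRP-LB (2.30, SE 0.13) and PGRP-LF (1.84, SE 0.13) were higher and the NF-kappaB factor Rel was lower at -1.07 (SE 0.10). In the heat shock list of 9 genes, 3 had more in IP (33.3%) and 2 less (22.2%), near the shares of all named genes (as deposited 0 and 8). The factor Hsf was at -0.80 (SE 0.10).

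The proteasome, the chaperonin CCT, the aminoacyl-tRNA synthetases and the translation factors had the lowest medians of the lists. Of 26 proteasome genes 0 were higher in IP and 24 lower (median -0.88), and on deposited values 26 were lower. The base subunit Rpn1 ran from 0.92 to 1.20 in IP with a median of 0.96, against 2.19 to 2.70 in INPUT, with no overlap (-1.51, SE 0.10). The catalytic subunit Prosbeta5 was at -1.38 (SE 0.12) and the ATPase subunit Rpt4 at -1.33 (SE 0.11). All 8 subunits of the chaperonin CCT were lower, with a median of -0.76, among them CCT1 (-1.03, SE 0.10) and CCT5 (-1.02, SE 0.10). Of 16 aminoacyl-tRNA synthetases 12 were lower and 1 higher, with a median of -0.75. The synthetases ThrRS (-1.21, SE 0.09) and GluProRS (-1.03, SE 0.09) were lower and TrpRS was higher (0.37, SE 0.10), a call that quantile normalization ended (adjusted p = 0.0535). Of 47 translation factors 24 were lower and 2 higher, with a median of -0.32, from eIF3a, an initiation factor subunit (-1.42, SE 0.10), to eEFSec, the selenocysteine elongation factor (0.60, SE 0.11). On deposited values all members of the CCT, synthetase and translation factor lists were lower, as were 10015 of all 11037 named genes.

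Metabolic lists leaned the same way with exceptions, the vacuolar ATPase less than the others. In glycolysis and the citrate cycle 12 of 23 were lower and 5 higher, with a median of -0.27 (as deposited 23 lower). The hexokinase Hex-C (-1.05, SE 0.12), the aconitase mAcon1 (-0.94, SE 0.11) and the phosphofructokinase Pfk (-0.93, SE 0.11) were lower and Gapdh1 was higher by 0.72 (SE 0.11). In oxidative phosphorylation 30 of 72 were lower and 6 higher, with a median of -0.25 (as deposited 71 lower and 0 higher), from ATPsynbeta and the complex I subunit ND-51 (-1.37, SE 0.10) to the complex I subunit ND-B16.6 (1.31, SE 0.11). Of 69 mitochondrial ribosomal proteins 31 were lower and 16 higher, with a median of -0.20 (as deposited 68 and 1), from mRpL38 (-1.06, SE 0.10) to mRpL33 (1.58, SE 0.11). Of 30 vacuolar ATPase subunits 9 were lower and 6 higher (as deposited 30 lower), and 10 were lower and 10 higher with the pairs as a block. Within that complex VhaM9.7-b was at 1.08 (SE 0.09) and Vha100-3 at -1.07 (SE 0.15).

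Cytosolic ribosomal proteins depended on the scaling. With median centring 27 of 34 were higher in IP and 1 lower (median 0.36), led by RpS20 (0.86, SE 0.08), whose levels were 8.41 to 8.51 in IP and 7.47 to 7.67 in INPUT. After quantile normalization 6 were higher in IP and 1 lower (median 0.03), and on deposited values all 34 were lower. RpL10Aa was lower at -0.90 (SE 0.14).

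Where a gene has several probe sets, the values above are those of the brightest, and others did not always pass. A further probe set did not pass for tkv (-0.20, adjusted p = 0.416), wb (0.09, adjusted p = 0.473), bnl (0.31, adjusted p = 0.0639), cwo (0.07, adjusted p = 0.645), CrebB (-0.36, adjusted p = 0.0842) and Hr38 (0.03, adjusted p = 0.875). More than 1 did not pass for Hr4 (0.16 and 0.27), Ptp99A (0.11 and -0.03, beside 0.98 on a probe set that passed) and TrpRS (-0.20 and -0.18).

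Detoxification enzymes included some close relatives with opposite differences. Of 58 glutathione and UDP-glycosyl transferases 14 were higher in IP (24.1%) and 14 lower (24.1%), with a median of 0.01 (as deposited 3 and 53). These shares are near the 27.8% and 27.2% of all named genes, and the members named below were chosen for large differences. GstE3 ran from 5.45 to 6.13 in IP with a median of 5.78, against 3.16, 3.39, 3.40, 3.41 and 3.48 in INPUT, and was higher by 2.40 (SE 0.12). GstE7 was higher by 1.90 (SE 0.16). GstE9, of the same epsilon class, ran from 2.96 to 3.90 in IP with a median of 3.38, against 5.07, 5.31, 5.33, 5.37 and 5.44 in INPUT, and GstE6 was lower at -1.37 (SE 0.09). The groups of both GstE3 and GstE9 were separate, in opposite directions. The omega class member GstO3 was lower at -1.33 (SE 0.10). Among 73 cytochrome P450 genes 13 were higher in IP and 26 lower (median -0.17, as deposited 1 and 72). Beside Cyp18a1 at the top, Cyp4g1, which makes cuticular hydrocarbons, was at -1.57 (SE 0.28) and Cyp12a4 at -1.21 (SE 0.14). Probe sets of near relatives may share sequence, and cross-hybridisation was not tested.

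Whether the difference varied among ZT3, ZT7 and ZT11 was tested with an F test of fraction by time. In limma 0 of 14882 probe sets passed at an adjusted p under 0.05, and 259 (1.74%) had an unadjusted p under 0.05. With the pairs as a block 687 did, with no call after adjustment. Without IP at ZT3 replicate 1, which leaves the array that stands apart as the only IP array at ZT3, 2275 had an unadjusted p under 0.05 and 0 an adjusted one. The smallest unadjusted p was that of dy, 0.000847. The next were CG1812 (0.000933), CG7906 (0.00241), miple1 (0.00338), l(2)41Ab (0.00345), CG34434 (0.00379), mim (0.00396) and Mkrn1 (0.00506), none past adjustment. In each of the 7 the value at ZT3 was farthest from the other times, as for CG1812 with 3.23 at ZT3, 2.03 at ZT7 and 2.06 at ZT11. In CG1812 the INPUT array at ZT3 was at 0.31 and the other INPUT arrays at 0.91, 0.95, 1.09 and 1.10.

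The clock gene Clk shows how the fractions moved within the day. IP levels were 4.60 and 4.84 at ZT3, 4.25 and 4.30 at ZT7, and 3.62 and 3.48 at ZT11. INPUT was at 2.75 at ZT3, 2.42 and 2.35 at ZT7, and 1.80 and 2.16 at ZT11. Both fractions were lower at each later time, and the difference was 1.97, 1.89 and 1.57. For tim both went the other way, with IP at 2.81 and 2.57 at ZT3 and 5.32 and 5.31 at ZT11, and INPUT at 2.39 at ZT3 and 4.95 and 4.65 at ZT11. The difference for tim stayed between 0.30 and 0.51.

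Set against night, the daytime differences were nearly the same across genes. The day and night fits shared no array, and over 14882 probe sets their differences correlated at 0.977, as a description across probe sets that are not independent replicates. Of the 3700 probe sets higher by day, 3442 (93.0%) were higher by night, which was 85.2% of the 4039 (27.1%) higher by night. Of the 3733 lower by day, 3320 (88.9%) were lower by night, which was 84.0% of 3951 (26.5%). CG34134 was the 1 named gene higher by day and lower by night, and 0 were lower by day and higher by night. The daytime call of CG34134 was lost without INPUT at ZT3 replicate 1, its only INPUT array at that time (0.29, adjusted p = 0.118), without IP at ZT7 replicate 1, and with no ZT3 arrays (0.29, adjusted p = 0.0951). Vang differed by 3.85 by day and 3.92 by night, and CNT1 by -1.91 and -1.78.

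**Figure D3:**
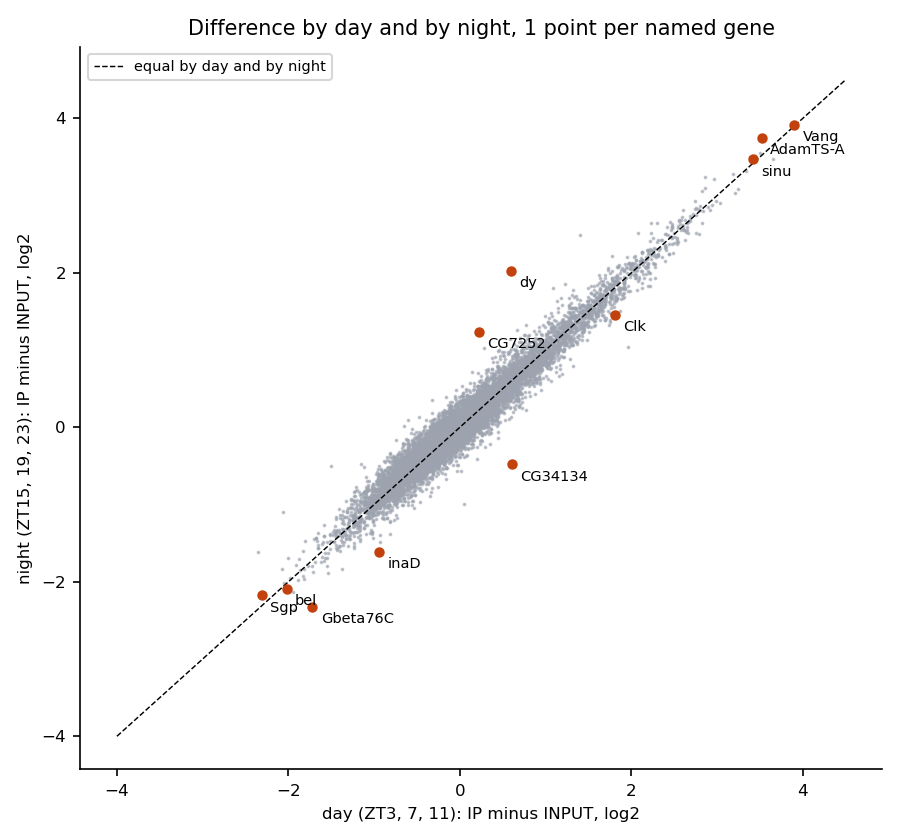
IP minus INPUT by day (horizontal axis) and by night (vertical axis), log2 on centred arrays, with 1 point for each named gene kept over the 23 wild-type arrays and a dashed line of equality. Most genes lie along the line, while dy and CG7252 lie above it and CG34134 below.

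The test of the difference itself, daytime minus nighttime enrichment over all 23 wild-type arrays, called 3 of 15517 probe sets, 1 higher by day (0.00644%) and 2 lower by day (0.0129%). At an unadjusted p under 0.05 there were 233 (1.5%). The gene with the largest gap was dy, which encodes a membrane protein of the zona pellucida family that shapes wing cells. IP levels of dy were -1.79 and -1.90 at ZT3, -1.68 and -1.59 at ZT7, -0.38 and -0.32 at ZT11, 2.94 and 3.16 at ZT15, 1.19 and 0.75 at ZT19, and -1.37 and -1.60 at ZT23. INPUT was at -2.05 at ZT3, -1.92 and -1.84 at ZT7, -1.82 and -1.55 at ZT11, -0.60 and -0.28 at ZT15, -1.30 and -1.54 at ZT19, and -1.59 and -1.80 at ZT23. Both fractions peaked at ZT15, and the fractions were farthest apart there. The difference was 0.21 at ZT3, 0.25 at ZT7 and 1.34 at ZT11, and 3.49 at ZT15, 2.39 at ZT19 and 0.21 at ZT23. By day minus by night it was -1.43 (SE 0.15, adjusted p = 0.000654). The call stood without each of the 23 arrays in turn, with adjusted p from 0.000376 to 0.0172. The daytime INPUT mean of dy was 4.30 on the deposited scale, within the lowest of the 5 bins (3.72 to 4.86). Deposited daytime IP values of dy ran from 2.87 to 4.51. The gene exceeded the filter's minimum of 4 in 7 of 11 daytime arrays and in 10 of 12 night arrays. Whether low signal limited its daytime differences was not tested.

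CG7252 also passed the test as lower by day. Its IP levels lay between -2.14 and -1.81 by day and between -0.72 and -0.28 by night, while INPUT lay between -2.44 and -2.06 by day and between -2.07 and -1.67 by night. The day and night ranges of IP were thus separate, and those of INPUT met at their edges. The difference was 0.22 by day and 1.24 by night, that is -1.01 by day minus by night (SE 0.14, adjusted p = 0.0168). The call was lost without 6 of the 23 single arrays, with adjusted p up to 0.0664, namely INPUT at ZT11 replicate 1 and replicate 2, INPUT at ZT23 replicate 2, IP at ZT7 replicate 1, IP at ZT19 replicate 2 and IP at ZT23 replicate 2. CG7252 exceeded the filter's minimum of 4 (log2, as deposited) in 2 of 11 daytime arrays and in 12 of 12 night arrays, so it was not kept by the daytime filter and entered the test of day minus night through the night arrays. Its deposited daytime IP values were all below that minimum, with the lowest at 2.64, and the result is given as a description.

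CG34134 was the reverse. IP levels were 3.44 and 3.62 at ZT3, 1.01 and 0.54 at ZT7, and -0.11 and 0.09 at ZT11, against 2.27 at ZT3, 0.39 and 0.19 at ZT7, and -0.17 and -0.04 at ZT11 in INPUT. At night IP lay below INPUT, at 1.93 and 1.55 against 2.34 and 2.49 at ZT15, and at 4.03 and 3.78 against 4.32 and 4.56 at ZT19. At ZT23 the values were 5.08 and 4.77 in IP and 5.04 and 5.29 in INPUT, which overlap. The difference was 0.61 by day and -0.48 by night (day minus night 1.09, SE 0.16, adjusted p = 0.0234). It leans on ZT3, where INPUT has 1 array. Without that array, and so without ZT3, the value was 0.77 with adjusted p = 1, and the call was lost without 13 of the 23 single arrays in all.

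**Figure D4:**
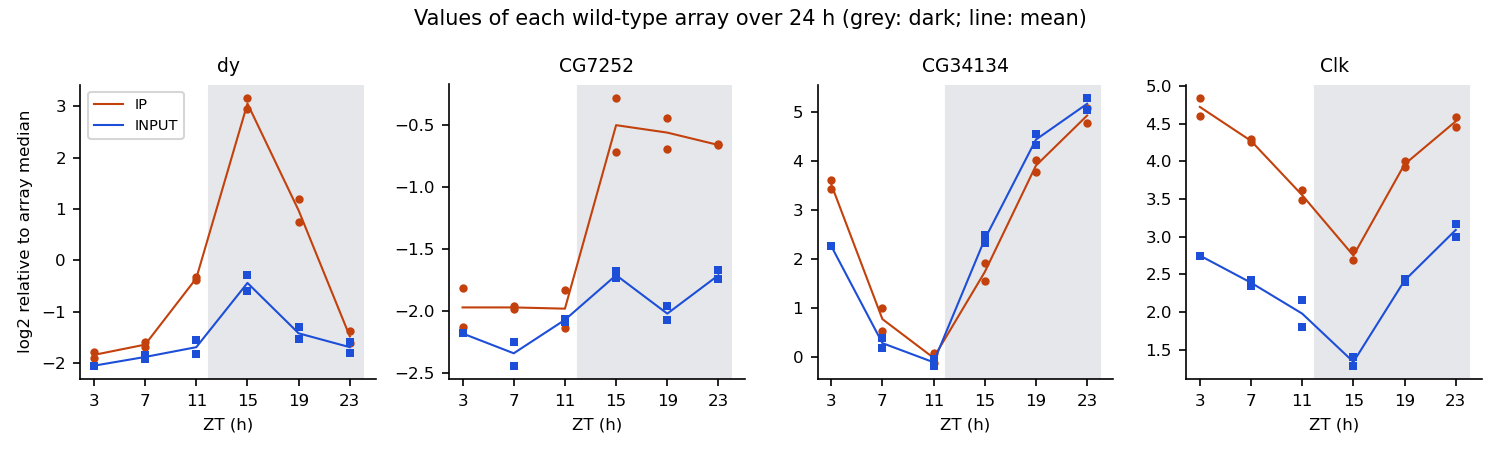
Levels of dy, CG7252, CG34134 and Clk on each of the 23 wild-type arrays (log2 relative to the array median, vertical axes with their own ranges) by Zeitgeber time, with circles for IP, squares for INPUT, lines through the means and grey for the dark. For dy both fractions peak at ZT15, with IP at 2.94 and 3.16 and INPUT at -0.60 and -0.28.

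The remaining genes with the smallest p did not pass (adjusted p = 1). Among those higher by day were CG12910 at 0.53 (SE 0.12), inaD at 0.67 (SE 0.16) and Galphaq at 0.61 (SE 0.16), and among those lower by day was sv, a Pax family transcription factor, at -0.59 (SE 0.14). For inaD the difference was -0.94 by day and -1.61 by night, and for Galphaq 0.20 and -0.41. The photoreceptor list as a whole had a median of 0.27 by day and -0.05 by night, and the difference of these medians was not tested. The difference of Clk was 1.81 by day and 1.46 by night (day minus night 0.34, SE 0.12, adjusted p = 1). Among core clock genes the largest value of day minus night was that of tws, 0.40 (SE 0.16), which did not pass either.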

How the data were processed

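RNA from AGO1 precipitates and from the starting extract was hybridised to Affymetrix Drosophila arrays. The deposited values are log2 signals that the authors made with GCRMA, per the submitters' processing notes, and the array medians, 4.77 to 4.90 in IP against 6.11 to 6.18 in INPUT by day, show that the fractions are on different scales. From there each array was centred on the median of its 18769 non-control probe sets, and probe sets above 4 as deposited in at least 3 of the 11 arrays were kept. Differences were fitted with limma 3.58.1 in R 4.3.3 (lmFit, eBayes) with ZT as a block and Benjamini-Hochberg adjustment over all probe sets kept. Time within the day and day minus night were tested in group-mean fits over 11 and 23 arrays. Figures were drawn with matplotlib 3.10.9. The number of arrays limits the precision. The fits were tested on simulated data.

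Of the probe sets 13647 (72.7%) carried 1 gene symbol in GEO's platform annotation, 402 several and 4720 none, and 13544 matched the RefSeq gene table. No genome build or microRNA and untranslated region sequences were used here, so the planned description of seed matches was not run. Genes were named by rule: the 20 largest positive and 15 largest negative called differences with a constant sign over the times and no overlap of fractions, up to 5 members of each list with the largest difference and up to 2 of the opposite sign, every core clock gene, the 8 smallest p of the time test, and the leading genes of day minus night. Members and lists were chosen with earlier results of these data known.

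Labels give IP and INPUT arrays of a time the same replicate numbers. Deviations of same-numbered arrays correlated at 0.421 at ZT7 and 0.400 at ZT11, and at 0.671, 0.435 and 0.384 at ZT15, ZT19 and ZT23. Between times the median was 0.094, with a range (-0.266 to 0.619) that overlaps those values. The numbers were therefore treated as possible pairs. The main daytime fit had ZT as its only block, and a fit with these pairs as the block was an alternative. In the fit with pairs IP at ZT3 replicate 2 has no partner and adds nothing to the difference. That fit is thus also one without this array. The alternatives were other scalings, filters, blocks, variance models and leaving out each array.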

Additional observations from a re-analysis of the deposited data

Results flagged for a closer look

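IP at ZT3 replicate 2 stood apart from the other daytime IP arrays, with a median correlation of 0.973. Among 72 groups of arrays checked for 1 array far from the rest, 6 had one, and chance gives about 1 in 20. All 6 were this array. Beside the correlation they were AdamTS-A at 3.43, CG10710 at 1.43 and CG4836 at 3.72, each below the other IP arrays, and CG15385 at 2.86 and Usp32 at 1.44, each above them. In all 5 genes the IP arrays lay on 1 side of all INPUT arrays, which the rule that chose these genes required.

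IP minus INPUT differed between day and night, by the test of that difference, for dy (-1.43), CG7252 (-1.01) and CG34134 (1.09). CG34134 had opposite signs by day and by night, and its daytime call was lost without 2 of the 11 single arrays. CG7252 exceeded the filter's minimum in 2 of 11 daytime arrays and 12 of 12 night arrays, and its value is given as a description. For dy these counts were 7 of 11 and 10 of 12, with daytime IP as low as 2.87 as deposited.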

How the results depend on the processing

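Scaling was the choice that decided most. On deposited values with no centring 473 probe sets had more in IP and 13680 less, past 2-fold 104 and 11213, and the higher ones were 3.3% of calls against 49.8% with centring (44.1% after quantile normalization). By construction this adds the median shift between fractions, and 26 of the text's genes changed sign: Axn -0.23, ds -0.24, sav -0.02, yki -0.22, E(spl)m7-HLH -0.25, gw -0.43, pum -0.49, Galphaq -1.15, repo -0.15, Gapdh1 -0.59, TrpRS -0.94, VhaM9.7-b -0.23, RpS20 -0.45, eEFSec -0.71, vri -0.15, cwo -0.24, jet -0.44, tim -0.90, Pdp1 -1.10, tws -1.14, dco -1.27, dy -0.67, CG34134 -0.78, trp -0.83, rdgB -0.58 and sv -0.66. Under the other alternatives run none of the text's genes that passed in either fit changed sign. Sign changes of genes that passed in neither fit were not counted. With no ZT block 8 lost their call, among them tim, vri, per and cyc. With the replicate block, pairing same-numbered arrays, 4238 were higher and 4494 lower, and 7427 of 7433 calls were kept. This fit takes nothing from IP at ZT3 replicate 2, which has no partner, so pairing and the loss of that array are not separated. The block gave 2 higher by day than by night instead of 1, and changed no call of the text's genes. Leaving out each array in turn gave 3217 to 3960 higher and 3193 to 4124 lower, past 2-fold 1142 to 1282 and 481 to 554, and by day minus by night 0 to 1 higher and 1 to 3 lower. Of 172 text genes past the test, 6 lost the call without at least 1 array. For time within the day, leaving out each array that has a replicate gave 0 to 0. In the lowest bin of INPUT level 10.5% passed as higher and 2.6% as lower, and what sets these shares was not tested.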

Other observations

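The series also holds heads labelled Tim-Dcr, with a single IP and a single INPUT array at ZT3, and the same at ZT15. The ZT15 arrays were not used here, and at ZT3 there is no replicate check and no test. Across probe sets IP minus INPUT in these heads correlated with the wild-type daytime difference at 0.713, over probe sets that are not independent replicates. All 20 genes of largest positive wild-type difference were above 0 there, from 1.58 to 3.38 with a median of 2.61. Of the 15 genes of largest negative difference 12 were below 0, from -1.96 to 0.39 with a median of -0.76.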
